A study of Mus musculus with 7 samples.

Results

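Gene deserts are long stretches of the genome without a protein-coding gene, and in the 3 tumour cell clones studied here 524 regions deep inside them carried H3K27-Ac in every clone. A region was counted when peaks of all 3 clones joined into 1 merged region by an overlap of at least 1 bp on chromosomes 1 to 19, when its midpoint lay outside every protein-coding gene body, and when the nearest protein-coding transcription start was more than 100 kb away. Peaks that did not overlap stayed apart however close they lay, so 1 stretch of signal can count as several regions. These 524 regions are part of 56903 merged regions, of which 15462 (27.2%) were overlapped by all 3 peak lists. The regions were thus selected on the authors' peak calls, so their number and their levels are a description and no test was made on them.

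H3K27-Ac is an acetylated lysine of histone H3 that is found at active enhancers and promoters. Enhancers are short DNA elements that bind transcription factors and raise the transcription of a gene, which can lie far away on the chromosome because the intervening DNA forms a loop. Genes that control development are often neighboured by deserts that hold many such elements, and Sox9 and Myc are known for enhancers far from the gene. The AP-1 factors, dimers of FOS and JUN proteins, bind many enhancers in epithelial and mesenchymal cells.

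The clones grow in soft agar, and each is a single clone from a separate skin tumour, diagnosed as trichoblastic carcinoma, of Cdkn2ab-/- mice on a mixed 129P2 and FVB/N background. All clones thus lack p15Ink4b, p16Ink4a and p19Arf, the mice carry the deletion in every cell, and there was no untreated or normal group. There was 1 H3K27-Ac library each for clones 1 and 2 and there were 2 for clone 3, which the authors pooled into 1 list. The 3 IgG control libraries are labelled as of clones 1 and 3, and none used here is labelled as of clone 2. The deposited fold enrichment of clone 2 is nonetheless over a control background, which is compared with that of clone 1 below.

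The sequences of some regions show features of the DNA that recur among the 524. The first 5 lines give 147 bases each around the letters TGAGTCA, or TGACTCA on the other strand, which AP-1 binds. These letters are in capitals. The lines come from the RefSeq reference at the desert regions with the highest median percentile of enrichment near Hes1, Ccnd2, Myc, Zeb2 and Cdkn2b, at chr16:29814095-29814241, chr6:127330191-127330337, chr15:62569203-62569349, chr2:46443168-46443314 and chr4:89428033-89428179 of GRCm38, plus strand, and each region is named by the genes on either side.
Opa1-Hes1: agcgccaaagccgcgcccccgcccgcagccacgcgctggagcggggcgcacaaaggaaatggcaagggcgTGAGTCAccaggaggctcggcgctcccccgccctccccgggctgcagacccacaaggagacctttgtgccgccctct
Ccnd2-Parp11: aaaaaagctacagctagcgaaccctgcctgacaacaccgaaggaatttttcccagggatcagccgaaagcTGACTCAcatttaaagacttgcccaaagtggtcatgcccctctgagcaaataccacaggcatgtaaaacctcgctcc
Myc-Gsdmc: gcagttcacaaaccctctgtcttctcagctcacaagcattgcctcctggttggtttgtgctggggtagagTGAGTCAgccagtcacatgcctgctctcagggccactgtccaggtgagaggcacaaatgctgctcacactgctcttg
Zeb2-Acvr2a: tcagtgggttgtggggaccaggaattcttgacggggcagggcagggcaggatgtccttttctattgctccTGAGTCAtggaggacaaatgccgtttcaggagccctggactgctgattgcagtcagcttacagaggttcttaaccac
Cdkn2b-Dmrta1: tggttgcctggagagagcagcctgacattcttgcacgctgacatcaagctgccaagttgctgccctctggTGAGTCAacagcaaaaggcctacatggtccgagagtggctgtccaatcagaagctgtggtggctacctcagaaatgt
The AP-1 letters lay 231, 367, 19, 264 and 371 bp from the summit, the base with the highest signal, of the clone where the region ranks highest, in this order. The Opa1-Hes1 region is also rich in CG dinucleotides.

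The next 2 lines give 140 bases centred on the summit of regions without these letters within 500 bp. They are shown because they are rich in CG dinucleotides, here in capitals, which is a feature of many promoters. They lie at chr4:55651383-55651522 and chr15:68362559-68362698, plus strand.
Klf4-Actl7b: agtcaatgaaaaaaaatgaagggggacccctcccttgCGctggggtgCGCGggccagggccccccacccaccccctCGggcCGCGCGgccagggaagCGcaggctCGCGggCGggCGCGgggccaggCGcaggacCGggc
Zfat-Khdrbs3: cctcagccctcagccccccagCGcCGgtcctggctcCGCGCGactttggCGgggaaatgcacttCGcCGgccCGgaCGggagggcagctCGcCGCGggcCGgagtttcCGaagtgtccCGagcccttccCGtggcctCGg
They hold 15 and 18 CG dinucleotides.

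The authors' lists held 28641, 48925 and 28798 peaks of clones 1, 2 and 3 on these chromosomes. The deposited fold enrichment is the ChIP signal at the summit over the local background of the control, and it is compared here only within a clone, as a percentile among all its peaks. Solving it together with the deposited p-value gave whole ChIP reads at 100% of the peaks, to within 0.00612 read. At 1201, 1610 and 1568 peaks of clones 1, 2 and 3 more than 1 number of reads gave the deposited values, and the number whose background recurred most at other peaks was taken. A peak rested on a median of 37, 34 and 53 reads, and a gene-desert region on 36.5, 52 and 60 reads. The lists of clones 1 and 2 were not independent in their background. At summits no more than 20 bp apart, the backgrounds of clones 1 and 2 correlated with a Spearman rho of 0.94 across 3218 shared regions, compared with 0.18 for clones 1 and 3 across 2864 regions and 0.10 for clones 2 and 3 across 2507. The mean background at peaks was higher on Chr8 and Chr15 than on each of the other 17 chromosomes, at 1.38 and 1.34 times their median for clone 1. The ratios were 1.37 and 1.33 for clone 2, and 1.42 and 1.399 for clone 3. The paper reports that the cell lines used for ChIP-seq had gained the FVB/N Chr15. It also names Chr8 and Chr15 among its examples of small amplicons or modest gains in the tumours. The part of copy number in these backgrounds was not tested. The deleted genes Cdkn2a and Cdkn2b had no promoter peak in any clone, although 1, 2 and 2 peaks of clones 1, 2 and 3 overlapped the body of Cdkn2a. The extent of the deletion was not compared with these peaks. The labels call the cells tumour cells of skin. Promoter peaks in all 3 clones were found at 1 of 9 keratinocyte markers (Itga6) and 2 of 4 melanocyte markers (Mitf and Pmel). Of 11 mesenchymal markers 5 had them (Vim, Pdgfrb, Twist1, Twist2 and Prrx1), a share near the 47.1% of all protein-coding genes. Col1a1, Col1a2 and Pdgfra had a promoter peak in clones 1 and 2 only, Col3a1 in clone 3 only, and Thy1 and Dcn in none. Promoter peaks in all 3 clones were found at 0 of 5 immune, 0 of 4 endothelial and 0 of 4 muscle markers. The marker lists are small and identify no cell type here. Krt5, Trp63, Cdh1 and Epcam, which define epithelial cells, had no promoter peak in any clone, while Krt14 had one in clone 1 and Krt15 in clone 2.

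The desert regions were shared less often than merged regions as a whole. Of 3568 merged regions in deserts, 524 (14.7%) were overlapped by all 3 lists, 738 by 2 lists and 2306 by 1 list. The share was 20.6% of 11497 intergenic regions up to 100 kb from a start, 12.9% of 29225 regions in gene bodies and 69.7% of 12613 regions within 1 kb of a protein-coding start, against 27.2% over all merged regions. Desert regions that were seen in a single clone belonged mostly to clone 2 (963) and clone 3 (1029), and 314 belonged to clone 1. Of the desert peaks, 41.2% of clone 1, 32.6% of clone 2 and 27.4% of clone 3 lay in a shared region, compared with 55.9%, 31.9% and 50.0% of the other intergenic peaks. Desert peaks of clones 1 and 3 were thus less often in a shared region than other intergenic peaks, and those of clone 2 were not.

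**Figure D1:**
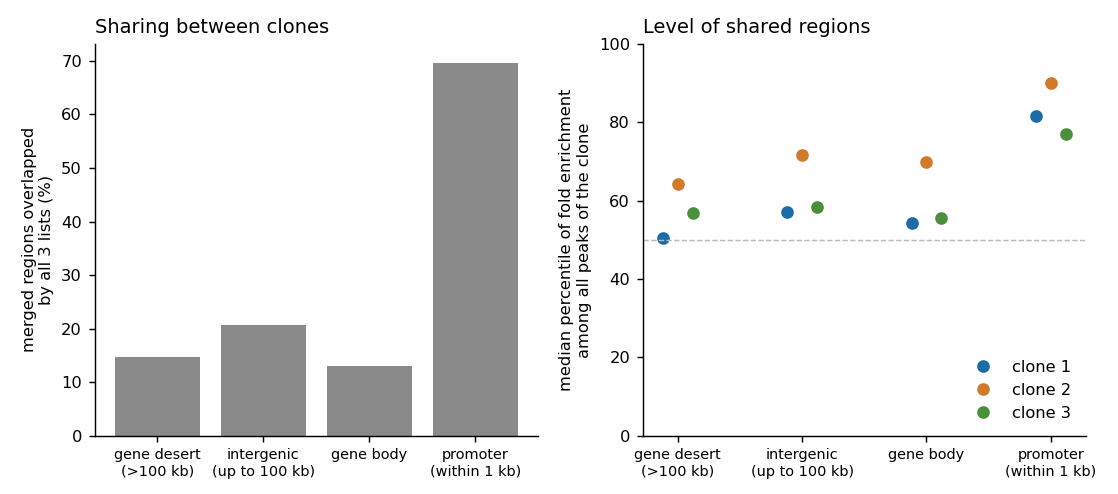
Left, percent of merged regions in each class that were overlapped by all 3 peak lists (bars, 1 value each). Right, median percentile of fold enrichment of the shared regions among all peaks of each clone (1 point per clone, dashed line at the middle of all peaks). Gene-desert regions sit between 50.6 and 64.3, below the 77.1 to 90.1 of promoters in every clone.

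The shared gene-desert regions were of ordinary strength. Their fold enrichment had a median of 7.80 in clone 1, 10.1 in clone 2 and 5.88 in clone 3, the 50.6th, 64.3rd and 56.96th percentile of the peaks of each clone (mean 57.3 ± 6.84, SD over n = 3 clones). The same mean was 62.4 ± 8.13 for the other intergenic regions, 59.98 ± 8.66 for gene bodies and 83.0 ± 6.58 for promoters. The order of desert, other intergenic and promoter regions held in each clone, while desert regions ranked below gene bodies in clones 1 and 2 and above them in clone 3. The clones ranked the desert regions less alike than the promoters. Across the 524 regions the Spearman rho of fold enrichment was 0.34 for clones 1 and 2, 0.45 for clones 1 and 3 and 0.14 for clones 2 and 3. Across the 8788 promoter regions it was 0.82, 0.67 and 0.61. In other intergenic regions the rho was 0.50, 0.48 and 0.26, and in gene bodies 0.48, 0.45 and 0.24. Agreement below that of promoters was thus common to all classes outside promoters. A desert region's highest percentile was reached in clone 2 at 249 regions, in clone 3 at 184 and in clone 1 at 91. Shared regions of every class had their highest median percentile in clone 2, whose list was the longest. It was 64.3 there in deserts, 71.8 in other intergenic regions, 69.9 in gene bodies and 90.1 in promoters. The part of list length in this was not tested. In the top 10% of the peaks of all 3 clones there were 3 desert regions, those near Hes1, Klf4 and between Zfat and Khdrbs3, and in the top 25% there were 29.

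The regions had a median width of 1374 bp and lay a median of 162 kb from the nearest protein-coding start. Between 100 and 150 kb there were 216 regions, between 150 and 200 kb 126, between 200 and 500 kb 151, and beyond 500 kb 31. Just inside the limit, at 100.1 kb, was a region between Hey1 and Mrps28 with fold enrichments of 6.66, 17.3 and 5.06 in clones 1, 2 and 3. Just outside, at 99.8 kb, was a region between Cdc42ep3 and Rmdn2 with 5.14, 11.0 and 4.62. The farthest region, chr10:47453887-47454786, lay 1782 kb from the start of Hace1, in the desert up to the glutamate receptor gene Grik2, and had fold enrichments of 6.15, 16.05 and 4.07. The 300 bp at its summit are 97.7% soft-masked repeat. They shared 51.3% of their 30-letter words with those of a region between Tmtc1 and Ipo8 on chromosome 6, which are 100% soft-masked. The effect of this on the mapping of reads was not tested. Only 1 other pair, in the desert between Ywhaq and Gm10330, shared over 50%.

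There were 1747 deserts, and 253 of them (14.5%) held a shared region. A desert was a stretch between protein-coding gene bodies, or between one and a chromosome end. It had at least 1 base more than 100 kb from every protein-coding start. Deserts with a shared region were longer than the others, with a median of 421 kb compared with 321 kb. In 138 deserts there was 1 shared region, in 51 there were 2 and in 64 there were 3 or more. Over 798 Mb of desert beyond 100 kb there were 0.657 regions per Mb. Unsequenced bases were not removed from the lengths, so these densities include stretches where no read can map. The density ranged from 0.135 per Mb on chromosome 19 (2 regions) to 1.17 on chromosome 13 (49 regions), and Chr15 had 1.02 (39 regions). Chr8, whose background was raised as much as that of Chr15, had 0.650 (30 regions). The part of the background in these densities was not tested.

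The desert with the most regions was that between Klf14, a Krüppel-like transcription factor, and Mkln1, which encodes the cytoskeletal protein muskelin, on chromosome 6. It held 13 shared regions in 440 kb. In clone 1 their fold enrichment ranged from 4.13 to 29.1, in clone 2 from 4.83 to 54.0 and in clone 3 from 3.93 to 16.8. Of these, 9 formed a cluster of 75.3 kb at chr6:31074109-31149432, with 23486 bp under the merged regions. The region with the highest median percentile over clones in this desert, chr6:31125211-31127343, lies in the cluster. It had fold enrichments of 29.1, 13.99 and 16.8 and was the highest of the desert in clones 1 and 3. In clone 2 it lay below the cluster's median percentile of 76.9. The region chr6:31215510-31221329, at starts of the long non-coding RNAs Lncpint and 2210408F21Rik, had 26.9, 54.0 and 7.43 and was the highest in clone 2. The strongest place of this desert was thus not the same in all clones. Mkln1 had a promoter peak, meaning a peak within 1 kb of a protein-coding start, in all 3 clones, and Klf14 had one in 0.

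The desert between Myc, the growth-promoting transcription factor, and Gsdmc, a gasdermin gene, held 9 regions, and the desert on the other side of Myc, up to A1bg, held 4. Of these 13, Myc had the nearest start for 10. The first 5 regions of the Myc-Gsdmc desert, 132 to 342 kb from the nearest start, lay in the body of Pvt1, a long non-coding RNA. The strongest of these, chr15:62327039-62330915, had fold enrichments of 30.01, 15.6 and 23.8. In clone 3 this was the highest value of all 524 regions, while in clone 2 it was the 74.2nd percentile. Its neighbour at chr15:62567878-62571244, 582 kb from the Myc start, had 31.8, 30.3 and 14.9. Next to that, chr15:62657786-62660137 had 19.2 in clone 1 and 10.1 in clone 3 and only 3.62 in clone 2, at the 2.61st percentile of its peaks. A promoter peak was present in 3 clones at Myc and in 0 at Gsdmc.

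The knocked-out locus borders a desert of its own. Between Cdkn2b and the doublesex-related gene Dmrta1 there were 6 regions, all in 1 cluster of 99.5 kb at chr4:89425736-89525246, and neither gene had a promoter peak in any clone. The 2 regions closest to Cdkn2b, 116 and 130 kb from its start, were the strongest in clones 1 and 3, with 17.4 and 14.7 in clone 1 and 17.7 and 12.1 in clone 3. In clone 2 they had 8.21 and 6.64, and its highest value was 10.6, at chr4:89485181-89488127. Of the 2 regions, the first thus reached the 98.4th percentile in clone 3 and the 56.9th in clone 2.

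**Figure D2:**
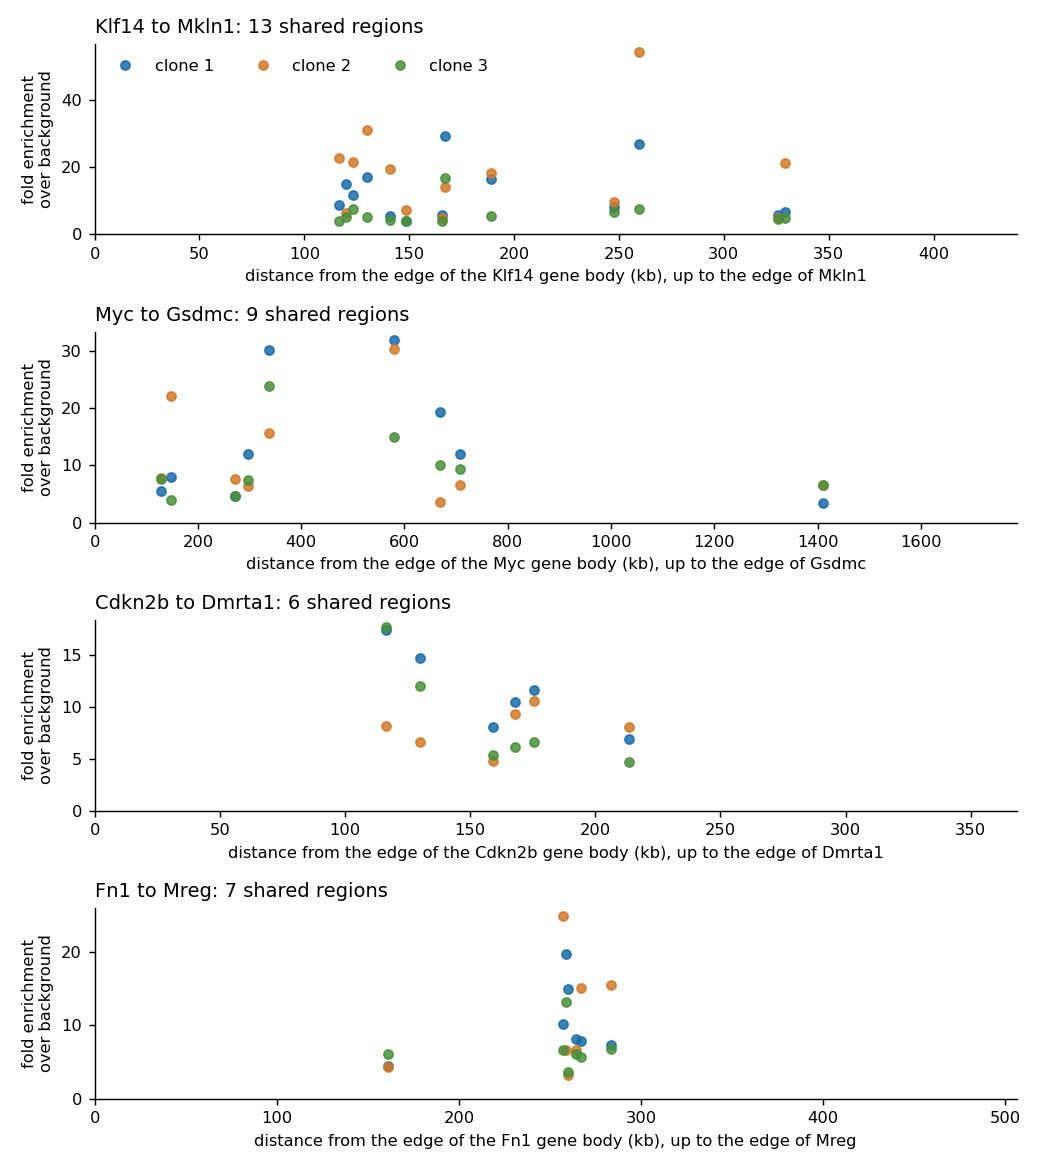
Fold enrichment of each shared region in clones 1, 2 and 3 (1 point per clone) against the distance from the gene body edge that bounds the desert, for 4 deserts; regions within 100 kb of a protein-coding start are left out by the rule. In the Klf14 desert clone 2 reaches 54.0 at the Lncpint start, and in the Cdkn2b desert the 2 regions nearest to Cdkn2b are the highest in clones 1 and 3 but not in clone 2.

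The genes at the other deserts with many regions included those of a matrix protein, a growth factor and a regulator of mRNA decay. The desert between Gm5148 and Ankrd50 held 8 regions, with fold enrichments of 3.89 to 12.98 in clone 1, 3.93 to 25.5 in clone 2 and 3.53 to 13.2 in clone 3. That between Fn1, which encodes fibronectin, and Mreg held 7, of which 6 lay within 28.4 kb at chr1:71909272-71937636. There, chr1:71911098-71912496 had fold enrichments of 19.8, 6.71 and 13.2, whereas chr1:71909272-71911025, the next region, had 10.2, 24.9 and 6.65. The first of these had its highest percentile in clone 3 and the other in clone 2. These 2 regions nearly touch, so they and other close neighbours in a cluster need not be separate enhancers. The 7 regions between 2410131K14Rik and Med13l, a subunit of the mediator kinase module, formed 1 cluster of 107 kb, and the last of them, chr5:118458149-118460415, had 26.2, 30.9 and 11.2. The 7 regions between Lyplal1 and Tgfb2, which encodes a TGF-β ligand, were weak, with a median percentile of 34.0 over the regions. The 6 between Haao and Zfp36l2, an RNA-binding protein that promotes mRNA decay, had a median percentile of 74.5 but were uneven. The cluster of 3 at chr17:83953507-83993797 had a median percentile of 80.8, and that of 3 at chr17:84073789-84087148 had 43.5. In the latter, chr17:84081620-84087148 had fold enrichments of 31.9, 44.8 and 9.24.

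The 7 regions between Ywhaq, which encodes a 14-3-3 protein, and Gm10330 all had their highest percentile in clone 2, with fold enrichments there of 10.1 to 41.4. Between Sulf2, an extracellular sulfatase, and Prex1 there were 6 regions in 1 cluster of 110 kb, and 6 regions each lay between Tmx1 and Frmd6 and between Irf2bp2 and Tomm20, which completes the 12 richest deserts. Ties were ordered by the bases under the shared regions, and the deserts Zeb2-Acvr2a and Hmga2-Msrb3 also held 6 regions. Of the genes that bound these 12, Ankrd50, Fn1, Mreg, 2410131K14Rik, Med13l, Ywhaq, Lyplal1, Tgfb2, Zfp36l2, Tmx1, Frmd6, Irf2bp2, Tomm20 and Sulf2 were, besides Mkln1 and Myc, marked by H3K27-Ac at the promoter in all 3 clones, and Prex1 was so in 1 clone. In all there were 41 clusters of 3 or more regions no more than 50 kb apart, holding 155 regions (29.6%), beside 59 pairs and 251 regions on their own. Clustered regions were wider than the rest, with a median of 1651 bp compared with 1316 bp.

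A small part of the regions resembled promoters in sequence. At the summit 39 regions (7.44%) were CpG-rich, taken as over 50% GC and an observed over expected CpG above 0.6 in 300 bp, compared with 84.3% of shared promoter regions and 0.327% of 146623 windows of the same length tiled over deserts outside peaks. The CpG-rich regions ranked higher, with a median percentile of 73.2 compared with 54.2 for the other 485, and 6 of the 10 highest regions were among them. They were highest in clone 2 in 35 of 39 cases (89.7%), and the others in 44.1%. In clone 2 their median fold enrichment was 25.6 compared with 9.42 for the others, in clone 1 it was 11.2 compared with 7.67, and in clone 3 it was 6.68 compared with 5.81. As median percentiles it was 65.5 compared with 49.6 in clone 1, 81.9 compared with 61.9 in clone 2 and 65.4 compared with 56.0 in clone 3. The difference in percentile was thus in the same direction in all clones and widest in clone 2. A high percentile in clone 2 was not particular to these regions. Shared promoter regions had a median percentile of 90.1 in clone 2, compared with 81.7 and 77.1 in clones 1 and 3. Of the 39, 18 (46.2%) had the start of an annotated non-coding gene within 1 kb of an edge, against 56 (11.5%) of the others. In clusters 2 of 155 regions were CpG-rich, and outside them 37 of 369. Part of the CpG-rich group comes from 1 stretch, chr12:17881410-23315717, where every shared desert region was CpG-rich. It holds the 7 regions between Ywhaq and Gm10330 and those of the deserts Hpcal1-5730507C01Rik, 5730507C01Rik-Gm21863 and Gm21863-Asap2.

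**Figure D3:**
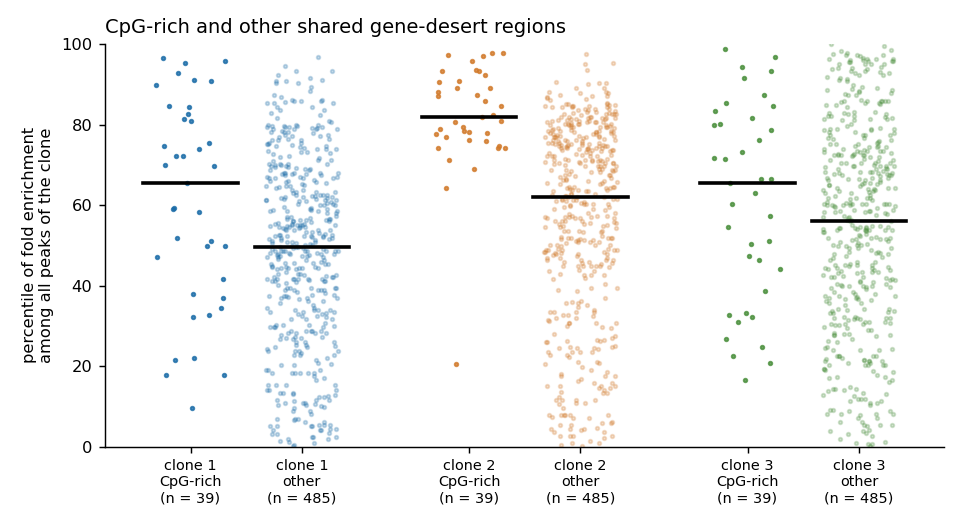
Percentile of fold enrichment of CpG-rich (n = 39) and other (n = 485) shared gene-desert regions in each clone (1 point per region, spread sideways to be seen, black bar at the median). The CpG-rich regions have medians of 65.5, 81.9 and 65.4 in clones 1, 2 and 3, and the others 49.6, 61.9 and 56.0.

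Among the 10 regions with the highest median percentile over clones, the first was chr16:29813372-29814843 in the desert of Hes1, the Notch-regulated repressor, with fold enrichments of 28.0, 71.8 and 15.6 in clones 1, 2 and 3 and 130, 333 and 149 reads, and it was CpG-rich. Next came chr15:68361692-68364170, between the zinc finger gene Zfat and Khdrbs3, with 39.0, 54.3 and 18.2, and chr13:107888197-107892083, between Kif2a and Ndufaf2, with 37.1, 74.6 and 8.77. The latter lies at the start of Zswim6, which the annotation used here does not type as protein-coding but RefSeq lists with an mRNA, so that it would be a promoter by the other annotation. In all, 8 of the 524 regions lie at such a RefSeq start. The region chr1:145955796-145958854, between Rgs18 and Brinp3, 537 kb from a start, had 39.7, 41.2 and 14.6 and was not CpG-rich. Its 300 bp at the summit are 98.3% soft-masked repeat, and the part of this in its level was not tested. Near Klf4, the Krüppel-like factor of the epidermal barrier, chr4:55650508-55652372 lay 119 kb from its start and had 35.7, 69.8 and 12.2. Near Ccnd2, which encodes cyclin D2, a partner of CDK4 and CDK6, chr6:127328870-127331247 had 18.1, 72.4 and 14.1. Its nearest start, 117 kb away, is that of Parp11, the gene on the other side, and Parp11 and Ccnd2 both had a promoter peak in all 3 clones. Others of the 10 lay in the deserts Lpp-Tprg, Banf2-Snx5 and Myc-Gsdmc.

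The AP-1 letters were found beside the summit more often than at it or far from it. In 200-bp bins whose centres lie 300 bp to either side of it, 16.6% and 18.1% of the 524 regions held TGAGTCA on either strand. In the bins that touch the summit the share was 7.25% and 6.49%, and 2 to 3 kb away it averaged 3.53%. The bins at 300 bp thus had 4.92 times the share of those at 2 to 3 kb. This held with the summits of each clone on their own, with 17.5%, 13.5% and 17.1% in clones 1, 2 and 3. The ratio was 3.42 in other intergenic regions and 3.73 in gene bodies, where the same bins held the letters in 13.5% and 14.3%, and 0.707 in promoters. Within 500 bp of the summit 249 regions (47.5%) held the letters, compared with 42.4% of other intergenic regions, 44.1% of gene body regions, 9.95% of promoters and 13.6% of 146207 desert windows of that length outside peaks. Among the CpG-rich regions it was 4 of 39 (10.3%), and among the others 245 of 485 (50.5%). In the 300 bp at the summit itself it was only 8.40%, compared with 4.33% of desert windows.

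**Figure D4:**
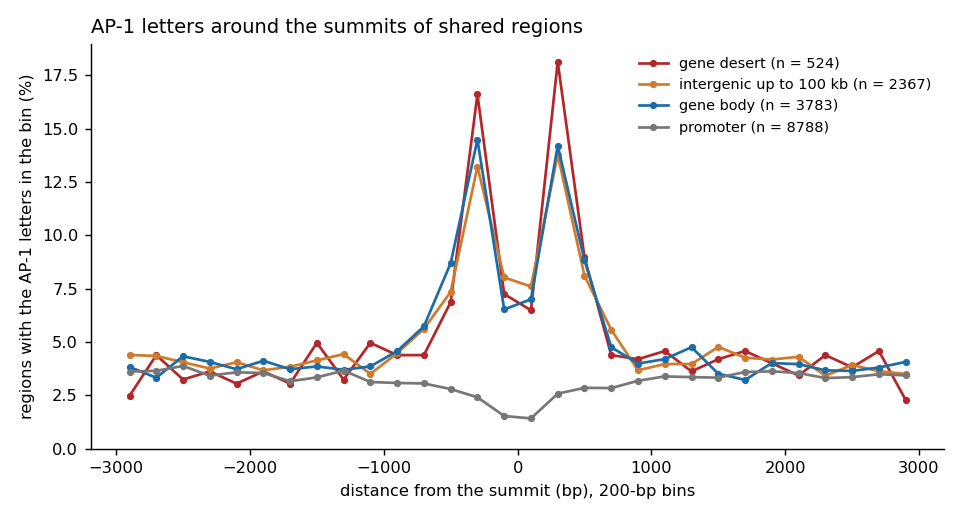
Percent of shared regions with the AP-1 letters in each 200-bp bin, against the distance from the summit of the peak with the highest percentile, for the 4 classes of shared regions. The share in gene-desert regions peaks at 16.6% and 18.1% at 300 bp to either side and falls to 6.49% to 7.25% at the summit, and promoters show no such peak.

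Other letters were searched in the same way on both strands. The ratio of the bins at 300 bp to those at 2 to 3 kb was 2.68 for the GC box (GGGCGG), which 6.97% of the regions held in a bin, and 1.504 for ETS (CCGGAA), which 3.53% held. It was 1.42 for the E-box (CAGCTG, 12.7%) and 1.26 for TEAD (GGAATG, 14.98%). For RUNX (TGTGGT, 18.5%) it was 1.21, for the core of CTCF (CCCTC, 44.8%) 1.25 and for NFI (TTGGCNNNN, 35.7%) 1.18. The ratio came to 1.06 for CEBP (TTGCNNAA, 10.0%), to 0.970 for TCF/LEF (CTTTGA, 14.4%) and to 0.792 for AGATAA (9.64%), which GATA factors bind. No overlap between the letters of different factors was removed. AP-1 thus had the highest ratio of the letters searched in the gene-desert regions, and the GC box, at 13.2, had it in promoters. With any centre base (TGANTCA) the AP-1 ratio was 3.50. The letters differ in length and in how common they are, with 3.53% for TGAGTCA and 35.8% for CCCTC in the bins at 2 to 3 kb. A common string cannot reach a high ratio, so the ranking is not one of factors. The summits of the desert regions had a median of 51% GC, compared with 39.0% in the tiled windows, and 2.099% of them were mostly soft-masked repeats, compared with 31.3%. The part of base composition in these shares was not tested. Regions with and without AP-1 letters within 500 bp, both not CpG-rich, had median percentiles of 53.8 over 245 regions and 55.5 over 240.

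Some of the regions lie on non-coding genes. The start of one was within 1 kb of the edges of 74 regions (14.1%), and the midpoint of 146 (27.9%) was in the body of a long non-coding RNA, so that 355 regions had neither. These shares were not compared with those of other desert positions or other classes, so they are a description only. Regions with a non-coding start ranked higher, with a median percentile of 62.4 compared with 54.3. Among these starts were those of Mir30a, Mir148a and Mir125b-1, which encode microRNAs. The Mir148a region, chr6:51269618-51271479, had fold enrichments of 6.29, 24.0 and 4.21, and the Mir125b-1 region, chr9:41579491-41582221, had 7.49, 19.7 and 4.14, so that both reached their highest percentile in clone 2. The Mir30a region, chr1:23271578-23272473, had 5.58, 4.78 and 7.86. If non-coding starts are counted as starts too, 98 regions remain more than 100 kb from any.

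The genes that bound a desert with a shared region more often had an H3K27-Ac peak at their own promoter. Of 484 such genes 309 (63.8%) carried one in every clone, compared with 1026 of 2389 genes (42.9%) that bound only deserts without a shared region, and 9785 of 20780 protein-coding genes in all (47.1%). The order was the same in each clone, with 65.3%, 72.5% and 64.0% in clones 1, 2 and 3 against 45.5%, 53.7% and 45.5%. Of the 524 regions, 223 had 2 such neighbours, 239 had 1 and 62 had none. At least 1 was found for 88.2% of regions and for 86.6% of deserts with a region, compared with 65.1% of the 1494 deserts without one. The promoter peaks come from the same libraries as the regions, and deserts with regions are longer. With the gene of the nearest start alone the share was 68.3%.

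**Figure D5:**
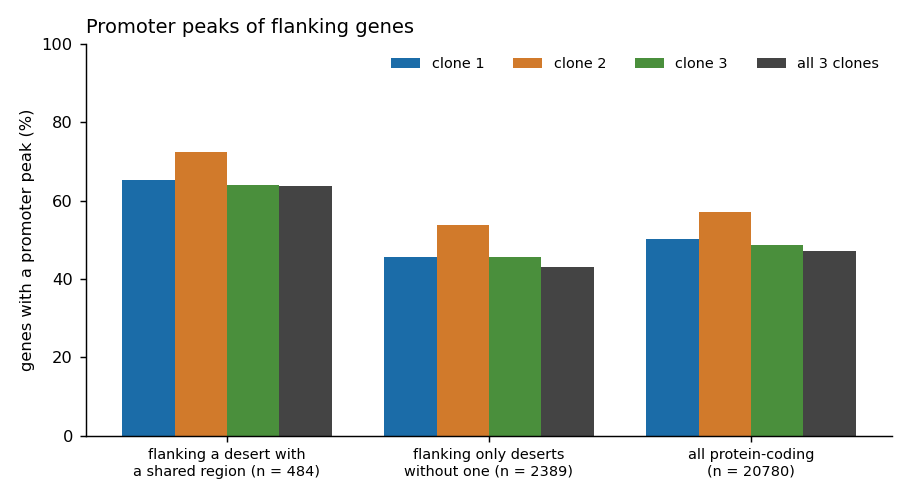
Percent of genes with an H3K27-Ac peak within 1 kb of a protein-coding start, in each clone and in all 3 clones, for genes that bound a desert with a shared region, genes that bound only deserts without one, and all protein-coding genes. The all-clone share is 63.8%, 42.9% and 47.1% in this order.

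Regulators of transcription, of mesenchymal cells and of growth were among the neighbours. Of 2873 genes that bound any desert, 484 (16.8%) bounded one with a shared region, and of 115 genes of developmental transcription factor families it was 34 (29.6%). At the promoter, 27 of the 34 carried H3K27-Ac in all 3 clones, compared with 309 (63.8%) of the 484. Of the family genes that bound only deserts without a shared region, 32 of 81 did, and of all family genes 116 of 282. Of the regulators of skin epithelium and hair follicle it was 7 of 23 (30.4%), of the mesenchymal regulators 8 of 21 (38.1%) and of the growth and signalling genes 12 of 35 (34.3%). Promoter peaks in all 3 clones were found at 3 of the 7, 7 of the 8 and 10 of the 12. Among genes of the same lists that bound only deserts without a shared region, it was 7 of 16, 6 of 13 and 7 of 23. The lists are small and no test was made on them.

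The 7 genes of the skin list were Trp63, Sox9, Klf4, Nfib, Sox2, Pitx1 and Bmp4. Promoters of Sox9, Klf4 and Nfib were marked in all 3 clones, those of the other 4 in 0. The desert between Tprg and Trp63, the master regulator of stratified epithelium, held 3 regions. Their fold enrichments were between 4.05 and 8.76 in clone 1, between 6.94 and 9.91 in clone 2 and between 6.14 and 6.71 in clone 3. The 2 regions around Sox9, a factor of hair follicle stem cells, lay 161 and 319 kb from its start, and the first, chr11:112620366-112622021, had 9.96, 36.5 and 5.03. Bmp4, a ligand that is active in dermal cells, shares its desert of 3 regions with Cdkn3.

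Among the 8 mesenchymal genes, Sox5 was without a promoter peak, and the other 7 had one in every clone. Zeb2, a repressor of epithelial genes, borders a desert of 3697 kb up to the activin receptor gene Acvr2a with 6 regions. Among them chr2:46441796-46444809, 1326 kb from the Zeb2 start, had fold enrichments of 23.7, 7.14 and 16.1 and was at the 97.4th percentile in clone 3. The closest to Zeb2, at 118 kb, had 3.22, 7.42 and 4.49 and was thus the weakest in clone 1. The 3 regions near Osr1, a factor of embryonic mesenchyme, all had Osr1 as the nearest gene, and chr12:9839416-9840685 had 12.4, 5.42 and 15.2. Zeb1, Tbx18, Sox4, Tcf4 and Meis2 had between 1 and 3 regions each.

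The 12 growth and signalling genes were Myc, Ccnd1, Ccnd2, Cdk6, Fgfr2, Tgfb2, Tgfbr2, Inhba, Irs1 and Irs2, each with a promoter peak in every clone, Nog, with one in clone 1, and Cxcl12, with none. The TGF-β receptor gene Tgfbr2 had 2 regions in the desert up to Rbms3, of which chr9:116383251-116385003, 209 kb away, had fold enrichments of 24.1, 54.9 and 10.0. The chemokine gene Cxcl12 shares its desert with Zfp637, which has promoter peaks in all 3 clones. The region chr6:117716272-117717298 had 30.9, 73.5 and 10.0, lies at a non-coding start and is nearest to Zfp637, at 124 kb, while the other of the 2 regions, nearest to Cxcl12 at 269 kb, had 7.74, 31.3 and 4.43. Cdk6, the partner of D-type cyclins, had 1 region 189 kb away, in the stretch up to the beginning of chromosome 5.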

How the data were processed

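Per the labels and the methods of the study, single-end reads of H3K27-Ac and IgG ChIP-seq libraries were mapped to GRCm38 with bowtie2. The submitters' processing notes name MACS2 2.1.1. By their peak names, the lists of clones 1 and 2 were made from reads filtered against allelic mapping bias (WASP), and that of clone 3 from merged libraries with no such mark. The authors deposited per peak the fold enrichment, a ratio of ChIP to local background at the summit, and the −log10 of its p-value and q-value. The lowest deposited −log10 q was 1.30, 1.33 and 1.35.

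Here peaks were merged and classified with Python 3.11.15, pandas 2.3.3 and SciPy 1.17.1, with starts and gene bodies from GENCODE vM21. ChIP reads at summits were solved from fold enrichment and p; on 2990 simulated peaks with known reads the step was right for 100%. Each ChIP read weighed 0.424, 0.428 and 0.308 control reads. Sequences are from RefSeq GRCm38.p6. Named are the borders of the 12 deserts with the most regions (ties by bases under them), the 10 regions highest by median percentile, the 5 clusters with the most regions, the farthest region and borders on the fixed lists; the regions of microRNA genes, the regions just inside and outside 100 kb and the near-identical pairs were added with their values in view. The regions and the gene lists were chosen with earlier results of these data known. Of the 10 highest regions, 1 is not reported here. With 1 condition no test was made. Alternatives changed the distance, the overlap, the −log10 q, the number of peaks, the windows and the clones.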

Additional observations from a re-analysis of the deposited data

Results flagged for a closer look

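The X chromosome was outside the regions counted, and by the same criteria it held 6 shared desert regions among 84 merged desert regions (7.14%), compared with 14.7% of the desert regions on chromosomes 1 to 19. They are given here because they lie outside the main comparison, and the difference in share was not tested. They lay between H2al1j and Bcor, Cask and H2al1n, Ldoc1 and 4933402E13Rik, 4933436I01Rik and Fmr1, and, with 2 regions, Efnb1 and Pja1.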

How the results depend on the processing

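The count of shared gene-desert regions was 1076 at 50 kb, 182 beyond 200 kb, 289 at a −log10 q of at least 5, 309 with the 3 summits within 250 bp and 98 with non-coding starts included. Leaving out 1 clone gave 718 to 880 regions, the latter without clone 2, 302 to 355 deserts, 60 to 79 clusters, the latter without clone 2, and a mean percentile of 53.8 to 60.6. Deserts with a region were 538 at 50 kb and 102 beyond 200 kb. Clusters were 11 at a −log10 q of at least 5, 24 with equal numbers of peaks, 22 when joined over 25 kb and 15 over the shortest distance tried. The shared percent was 12.8 at the stricter q and 13.4 with equal numbers. Flanking promoter peaks were found for 76.5% of regions when the start base had to be covered and for 68.3% at the nearest start. AP-1 letters were found in 4.77% of regions in 150 bp, 19.1% in 500 bp, 47.5% in 1000 bp (a window chosen after seeing the data), 15.1% at the region's centre and 12.4% with any centre base. No paired analysis was possible because the result comes from no test and there is 1 condition. The other alternatives tried moved no count by more than 1.5 times. They moved no percentage beyond the binomial 95% interval of its main value, and no percentile beyond the SD over clones. That interval treats regions as independent, although neighbouring regions can cluster, and it does not measure the spread between clones. The SD rests on 3 clones only.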
